A study of Mus musculus with 6 samples.

Results

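The genes described here form the transcriptional program of ATF4, the transcription factor at the centre of the integrated stress response, together with the amino acid enzymes and transporters that it is known to drive. Their symbols were given as a list of 38 genes, and a gene entered when its identifier in the expression table carried one of those symbols in GENCODE mouse release M21. Of the 38 genes, 37 were found among the 24354 genes of the table, and Cbs was not analysed here. The 37 fall into 8 genes for transcription factors and the pseudokinase Trib3, 2 phosphatase subunits, 7 stress effectors, secreted factors and receptors, 7 enzymes of asparagine, serine and one-carbon metabolism, 4 enzymes of proline, alanine and cysteine metabolism, and 9 amino acid transporters.

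In the integrated stress response, kinases that sense amino acid shortage, misfolded protein in the endoplasmic reticulum, heme deficiency or double-stranded RNA phosphorylate the translation factor eIF2. General protein synthesis then slows, while the mRNA of ATF4 is translated more, and ATF4, usually paired with a C/EBP protein, switches on genes for amino acid synthesis and uptake, for the secreted hormones GDF15 and FGF21, and for the brakes TRIB3 and GADD34. Prolonged activity also brings in CHOP, the product of Ddit3. In the testis, Sertoli cells feed germ cells and take up and convert amino acids for their own synthesis and for that of the cells they nurse.

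RNA-seq libraries were made from TM4 cells, an established mouse line of Sertoli cell origin. The AlCl3 group comprised 3 libraries of cells exposed to aluminium chloride at 100 nM and taken at day 30, and the control group comprised 3 libraries of cells without AlCl3, also taken at day 30. All 6 came from the same line in DMEM-F12 medium with fetal bovine serum, and no genetic change separates the groups. Nothing in the labels tells whether replicates were grown apart, so each p-value reflects the spread among these 6 libraries alone and that spread may be technical. The extraction protocol of the labels names retinas in place of cultured cells.

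Levels are FPKM, fragments per kilobase of gene scaled to the size of the library, and folds are AlCl3 over control on log2(FPKM + 1), so that a negative value means lower in AlCl3. Reads recovered from the FPKM steps numbered 17339432, 13381191 and 16881838 in AlCl3 1 to 3, against 16364830, 16618705 and 17114582 in control 1 to 3. Per read, a gene of 1 kb gained 0.0568 to 0.0736 FPKM depending on the library. On log2 values, libraries of the same group correlated at 0.978 to 0.993 and libraries of different groups at 0.874 to 0.904. In a bulk sample, fewer cells that express a gene and less RNA of that gene per cell cannot be told apart.

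Most of the ATF4 program was lower in AlCl3 cells, and the depth of the fall differed widely between its branches. All 37 genes had a mean of at least 1 FPKM and were tested. Of them 21 fell, 1 rose and 15 did not pass the test (limma, Benjamini-Hochberg adjusted p under 0.05 over all genes). The counts of falls, of larger falls and of groups without overlap given here and below include Fgf21. That gene reached the mean of 1 FPKM through the control libraries only, with 0.138 FPKM in AlCl3 and 5.98 FPKM in control. The share that passed in either direction, 59.5%, stands beside 61.3% of the 11202 genes tested, so that passing as such was no more common among these genes than in the table. The direction was uneven: 56.8% of the 37 fell, against a background of 30.2% of all genes, and 2.70% rose, against 31.2%. A fall of at least 1 on the log2 scale was found for 35.1% of the 37 genes, 13 in number, and for 10.5% of all genes. The median log2 fold change was -0.65 over the 37 genes and 0.03 over all genes tested. The summed level of the 37 genes was 2256 ± 121 FPKM in AlCl3 and 4012 ± 205 FPKM in control (SD, n = 3 each). No test of the group as a whole was run, since its members were chosen with results of these data known.

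In 24 of the 37 genes all AlCl3 values lay below all control values, and in 1 gene all lay above, against background shares of 32.4% and 33.7%. For these 25 genes the exact two-sided permutation p was 0.1, the smallest that 3 against 3 values can give. Replicate spread was moderate, with a median coefficient of variation of 9.37% in AlCl3 and 10.6% in control. Mthfd2 had the lowest in AlCl3, 2.53%, and Ddit4 the highest, 70.7%. In control, Pycr1 had the lowest, 2.65%, and Cth the highest, 41.1%. AlCl3 2 held the highest AlCl3 value in 18 of the 37 genes, and control 3 the highest control value in 26.

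**Figure D1:**
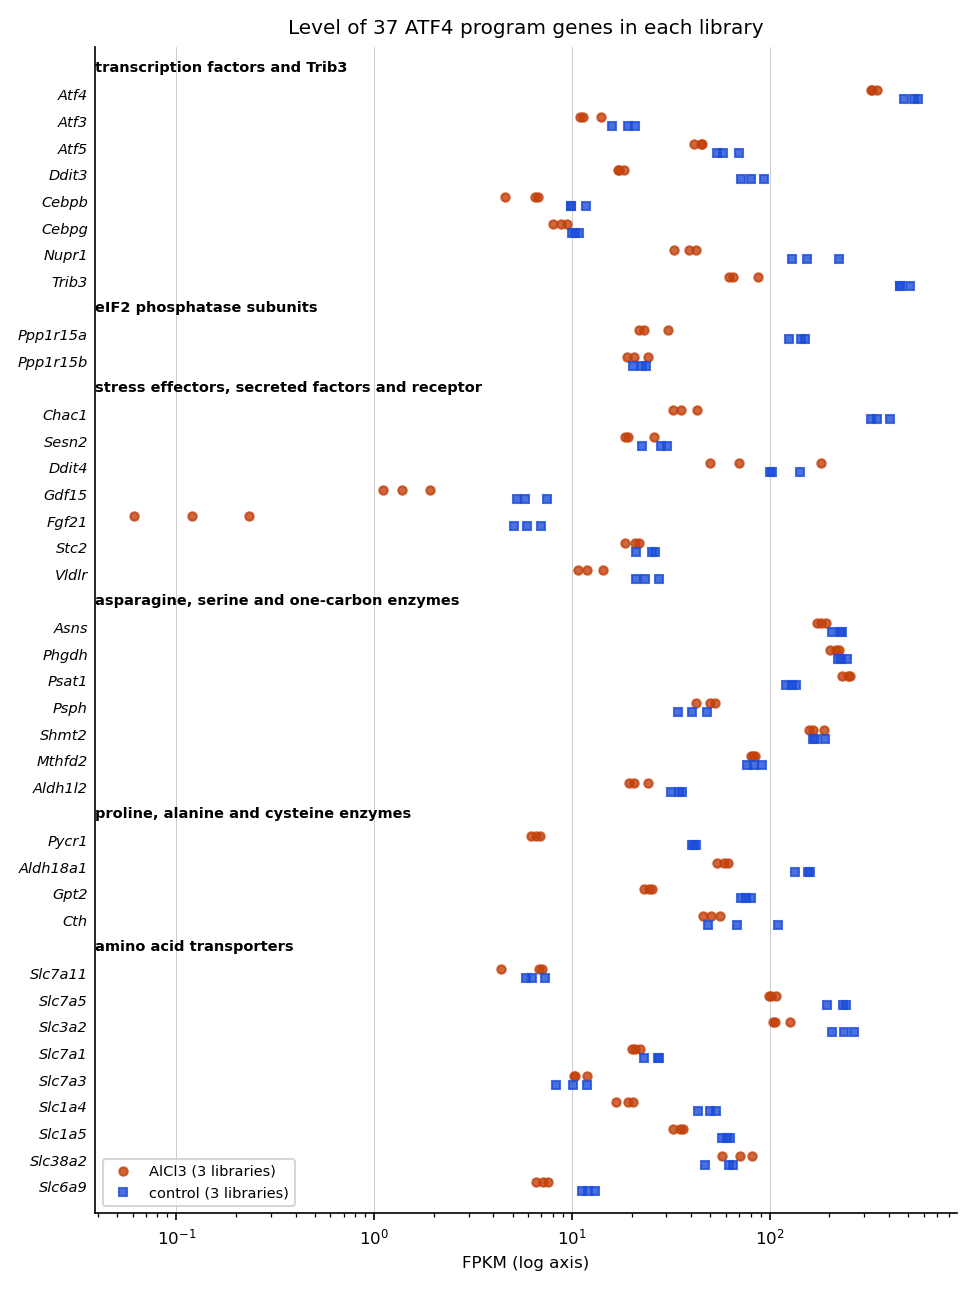
Level of each of the 37 genes in each library, in FPKM on a log axis, grouped by role, with AlCl3 as circles drawn just above the squares of control. Trib3, Chac1, Ppp1r15a, Pycr1 and Fgf21 show a wide gap with AlCl3 on the low side, Psat1 shows a gap with AlCl3 on the high side, and Shmt2, Mthfd2, Phgdh and Slc7a11 overlap.

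**Figure D2:**
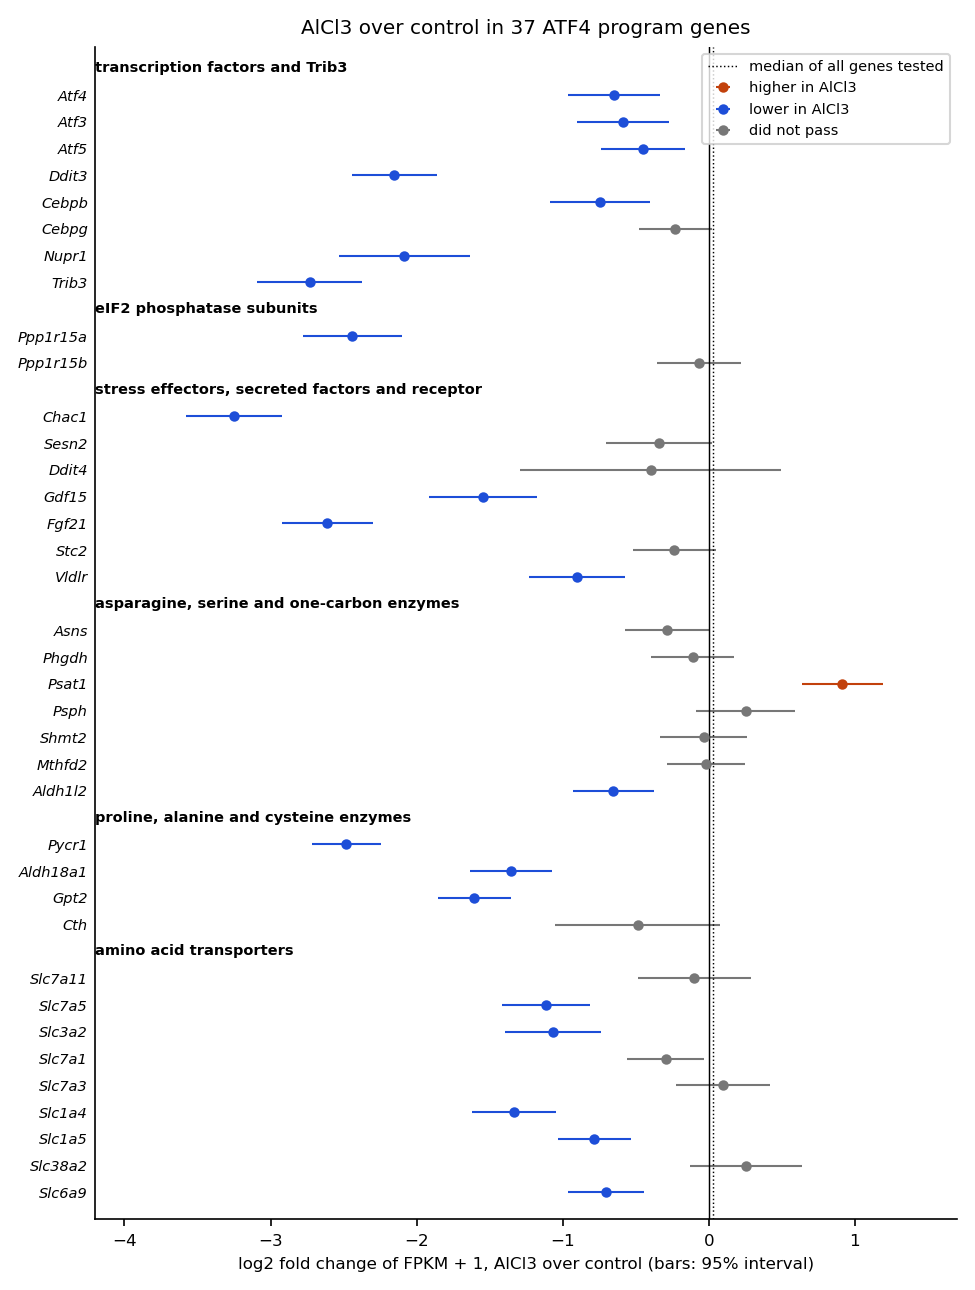
Log2 fold change of FPKM + 1, AlCl3 over control, with its 95% interval from limma, for the same 37 genes, coloured by whether the gene rose, fell or did not pass. The estimates run from -3.25 for Chac1 to 0.91 for Psat1, and the dotted line marks the median of all genes tested, 0.03.

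ATF4 binds, with a C/EBP partner, an element whose core is TGATGNAA, and the promoters of these genes were searched for those letters. The windows, from RefSeq on GRCm38.p6, run from 250 bases before to 50 bases after each annotated start, and the letters were searched on both strands, where the opposite strand reads TTNCATCA. A window was found for 32 of the 38 genes, and 10 of those 32 (31.3%) held the element, against 4.51% of 27025 genes with a window. The stretches below are the genes on which the results turn, printed 5′ to 3′ on the strand of the gene, and the capitals mark the element.
Chac1: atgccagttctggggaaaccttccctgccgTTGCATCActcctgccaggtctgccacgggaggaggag
Nupr1: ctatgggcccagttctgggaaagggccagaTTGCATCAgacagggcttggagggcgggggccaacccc
Fgf21: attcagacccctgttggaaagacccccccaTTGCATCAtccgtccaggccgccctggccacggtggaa
Pycr1: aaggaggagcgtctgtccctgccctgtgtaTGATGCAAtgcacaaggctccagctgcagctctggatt
Atf3: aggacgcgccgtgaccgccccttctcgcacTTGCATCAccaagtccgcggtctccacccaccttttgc
Vldlr: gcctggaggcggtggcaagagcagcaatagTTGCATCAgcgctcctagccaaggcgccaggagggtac
Asns: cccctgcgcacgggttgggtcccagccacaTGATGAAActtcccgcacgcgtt
Slc7a11: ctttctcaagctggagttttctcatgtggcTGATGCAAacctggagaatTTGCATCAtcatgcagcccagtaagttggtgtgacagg
The stretch of Chac1 lies at chr2:119351019-119351086 on the plus strand, with the element 193 bases before the start. That of Nupr1 lies at chr7:126625543-126625610 on the minus strand, 110 bases before the start, and that of Fgf21 at chr7:45615592-45615659 on the minus strand, 139 bases before it. Pycr1 holds it at chr11:120643814-120643881 on the minus strand, 103 bases before the start. The element of Atf3 lies within chr1:191183406-191183473 on the minus strand, 110 bases before the start, and that of Vldlr within chr19:27216790-27216857 on the plus strand, 200 bases before it. Asns holds it at chr6:7693210-7693262 on the minus strand, 23 bases before the start, in the form TGATGAAA. The promoter of Slc7a11, at chr3:50443623-50443709 on the minus strand, holds a pair of opposite orientation, 66 and 47 bases before the start.

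Of the 10 genes with the element, 8 fell in AlCl3 (Atf3, Nupr1, Trib3, Chac1, Fgf21, Vldlr, Pycr1 and Slc1a4), and Asns and Slc7a11 did not pass. In Trib3 and Slc1a4 the letters reach past the annotated start, and those stretches are not shown. Of the 21 expressed genes with a window but without the letters in it, 10 fell, 1 rose (Psat1) and 10 did not pass. Of all genes tested, 30.2% fell and 31.2% rose. Genes with and without the letters were not compared by a test. The letters were thus present in genes that fell and in genes that did not pass. A match in the window is a description of the sequence only, and its absence says no more than that these letters are not in these bases.

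Of the 8 genes for transcription factors and the pseudokinase Trib3, 7 fell and 1 did not pass, with a median log2 fold change of -0.69. Their summed level was 532 ± 30.9 FPKM in AlCl3 and 1349 ± 85.1 FPKM in control. Atf4 itself (ENSMUSG00000042406, chr15:80255184-80257541, plus strand, GRCm38) had 326, 348 and 328 FPKM in AlCl3 1 to 3, against 536, 478 and 560 FPKM in control 1 to 3. All AlCl3 values were below all control values, and Atf4 was nevertheless the most abundant of the 37 mRNAs in both groups. Its log2 fold change was -0.65 (SE 0.14, 95% interval -0.96 to -0.33, adjusted p = 0.0031), a ratio of 1.57 between control and AlCl3. With a smooth trend in GC content and length removed, it was -0.34 (adjusted p = 0.023). ATF4 is regulated largely at translation, and its protein was not measured.

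Trib3 (ENSMUSG00000032715, chr2:152337422-152344032, minus strand) encodes a pseudokinase that binds ATF4 and CHOP and restrains them. It had 64.7, 87.4 and 61.9 FPKM in AlCl3, against 455, 454 and 513 FPKM in control. The 3 control values were tightly placed and the AlCl3 libraries lay far below them, with AlCl3 2 the highest of its group. Trib3 fell by 2.73 on the log2 scale (SE 0.16, adjusted p = 3.2e-06), a 6.65-fold difference in mean FPKM. In control cells it was the second most abundant of the 37 mRNAs, just below Atf4.

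Ddit3 (ENSMUSG00000025408, chr10:127290774-127296288, plus strand) encodes CHOP, a C/EBP family factor tied to cell death under lasting stress. Its level was 18.2, 17.0 and 17.2 FPKM in AlCl3, against 93.5, 71.0 and 80.1 FPKM in control. The AlCl3 libraries were nearly equal, and no control library came near them. Ddit3 fell by 2.15 on the log2 scale (SE 0.13, adjusted p = 3.3e-06). Ddit3 overlaps 68 bases of Mars on the opposite strand, and Mars had 9001 reads in AlCl3 and 7874 in control, where Ddit3 had 1450 in AlCl3 and 7100 in control. Whether counting used strand is not given in the sources used here, so reads from the shared bases cannot be told apart. A further annotated gene entry, also named Ddit3, overlaps this one by 2925 bases on the same strand and had no values of its own.

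Nupr1 encodes a small chromatin protein induced by many stresses. It had 39.2, 42.4 and 32.8 FPKM in AlCl3, against 223, 154 and 129 FPKM in control. The control libraries were spread out, with control 1 the highest, and still lay above every AlCl3 library. Nupr1 fell by 2.08 on the log2 scale (SE 0.20, adjusted p = 2.7e-05).

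The other factors moved less. Atf3, an ATF family factor induced by ATF4 and by many acute stimuli, had 12.1 ± 1.62 FPKM in AlCl3 and 18.7 ± 2.45 FPKM in control (log2 fold change -0.59, SE 0.14, adjusted p = 0.0052). Cebpb, a C/EBP partner of ATF4, had 5.94 ± 1.17 FPKM in AlCl3 and 10.5 ± 1.08 FPKM in control (-0.74, SE 0.15, adjusted p = 0.0022). Atf5, whose mRNA is translated under eIF2 phosphorylation much as that of ATF4 is, had 43.8 ± 2.30 FPKM in AlCl3 and 60.4 ± 8.09 FPKM in control (-0.45, SE 0.13, adjusted p = 0.013). In none of these genes did the groups overlap. Cebpb and Atf5 are rich in GC, 67.2% and 61.7% of their longest transcripts, and with the trend in GC and length removed the fold was 0.08 for Cebpb (adjusted p = 0.75) and 0.17 for Atf5 (adjusted p = 0.19). For Atf5 the call also ended when values were rescaled to TPM, which gives every library the same total (-0.33, adjusted p = 0.099), and without AlCl3 3 (-0.41, adjusted p = 0.051). Atf5 overlaps Nup62 by 571 bases on the opposite strand, with 10160 reads of Nup62 in AlCl3 and 7276 in control, beside 4209 reads of Atf5 in AlCl3 and 6142 in control. Cebpb overlaps Tmem189 by 908 bases on the opposite strand, and a stretch of 320 bases matches it at 99.4% identity. Tmem189 had 1647 reads in AlCl3 and 2281 in control, beside 440 reads of Cebpb in AlCl3 and 805 in control. The count of Cebpb is likewise uncertain. Cebpg, the C/EBP partner that pairs with ATF4 on amino acid genes, had 8.79, 8.04 and 9.46 FPKM in AlCl3, against 10.8, 10.0 and 10.4 FPKM in control. The groups did not overlap, but the fold of -0.23 (95% interval -0.48 to 0.02) did not pass, with adjusted p = 0.10.

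The subunits that direct protein phosphatase 1 to eIF2 and so end the response differed from each other. Ppp1r15a encodes GADD34, the subunit induced by ATF4 and CHOP, and Ppp1r15b encodes CReP, the constitutive subunit. Ppp1r15a had 21.7, 30.5 and 23.2 FPKM in AlCl3, against 144, 125 and 151 FPKM in control. Every AlCl3 library was below every control library, and Ppp1r15a fell by 2.44 on the log2 scale (SE 0.15, adjusted p = 3.7e-06), 5.56-fold in mean FPKM. Ppp1r15b had 20.6, 19.0 and 24.1 FPKM in AlCl3, against 20.3, 23.7 and 22.6 FPKM in control. The groups overlapped, and the fold of -0.07 (95% interval -0.35 to 0.22) did not pass, with adjusted p = 0.67. The level of the inducible subunit was thus close to that of the constitutive subunit in AlCl3 cells, with a ratio of 1.21 ± 0.348, while in control cells the ratio was 6.33 ± 0.950.

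Of the 7 stress effectors, secreted factors and receptors, 4 fell and 3 did not pass, with a median log2 fold change of -0.90. That median was -0.40 where only genes with a mean of at least 5 FPKM were kept, which leaves out Gdf15 and Fgf21. Chac1 (ENSMUSG00000027313, chr2:119351229-119354381, plus strand) encodes an enzyme that breaks down glutathione and is a target of ATF4 and CHOP. It had 35.4, 42.9 and 32.5 FPKM in AlCl3, against 325, 349 and 403 FPKM in control. The lowest control library was far above the highest AlCl3 library. Chac1 fell by 3.25 on the log2 scale (SE 0.15, adjusted p = 1.7e-06), 9.72-fold in mean FPKM, and ranked 10 from the bottom among the 11202 genes tested.

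Fgf21 (ENSMUSG00000030827, chr7:45613886-45615490, minus strand) encodes a hormone secreted under amino acid restriction and mitochondrial stress. It had 0.119, 0.232 and 0.0613 FPKM in AlCl3, against 5.89, 5.11 and 6.95 FPKM in control. The AlCl3 values stand for 2, 3 and 1 reads, and the control values for 93, 82 and 115 reads. Fgf21 was therefore at the limit of detection in AlCl3 cells and passed the filter on low values through the control libraries. The rate of reads was 45.9-fold lower in AlCl3, with an exact 95% interval of 20.8 to 126 that covers counting error only. The fitted log2 fold change was -2.61 (SE 0.14, adjusted p = 2.3e-06) and depended on the pseudocount, being -4.73 with 0.1 added and -1.09 with 5 added.

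Gdf15 encodes the other secreted factor, a hormone that acts on the hindbrain. It had 1.10, 1.91 and 1.38 FPKM in AlCl3, against 5.79, 5.28 and 7.48 FPKM in control. All AlCl3 values were below all control values, and Gdf15 fell by 1.54 on the log2 scale (SE 0.16, adjusted p = 4.8e-05). The fold was -0.93 with the trend in GC and length removed and -0.79 with 5 added in place of 1. Vldlr, a lipoprotein receptor raised by ATF4 under endoplasmic reticulum stress, had 12.4 ± 1.85 FPKM in AlCl3 and 23.9 ± 3.29 FPKM in control. The groups did not overlap, and it fell by 0.90 on the log2 scale (SE 0.14, adjusted p = 0.00055).

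The remaining 3 genes of this role did not pass. Sesn2, a leucine sensor upstream of mTORC1, had 19.2, 25.9 and 18.5 FPKM in AlCl3, against 22.6, 28.3 and 30.0 FPKM in control (-0.34, 95% interval -0.70 to 0.03, adjusted p = 0.096). AlCl3 2 lay among the control libraries, and without it the fold was -0.48 (adjusted p = 0.018), as it was -0.45 (adjusted p = 0.039) without control 1. Stc2, a secreted glycoprotein, had 20.3 ± 1.64 FPKM in AlCl3 and 24.1 ± 2.76 FPKM in control (-0.24, 95% interval -0.52 to 0.05, adjusted p = 0.13), and passed without control 1 (adjusted p = 0.034). Ddit4, or REDD1, an inhibitor of mTORC1, had 49.8, 182 and 70.0 FPKM in AlCl3, against 100, 103 and 143 FPKM in control. AlCl3 2 was the highest of all 6 libraries while AlCl3 1 and AlCl3 3 were the lowest, and the fold of -0.40 (95% interval -1.29 to 0.50) did not pass, with adjusted p = 0.41. Without AlCl3 2 it was -0.93 (adjusted p = 0.0033). AlCl3 2 held the highest AlCl3 value in 6 of the 7 genes of this role.

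Of the 7 genes for asparagine, serine and one-carbon metabolism, 1 rose, 1 fell and 5 did not pass, and the median log2 fold change was -0.03, or 0.13 with the trend in GC and length removed. Their summed level was 963 ± 6.50 FPKM in AlCl3 and 915 ± 42.4 FPKM in control. Serine is made from a glycolytic intermediate in 3 steps, by the products of Phgdh, Psat1 and Psph in turn, and Shmt2, Mthfd2 and Aldh1l2 then handle its one-carbon unit in the mitochondrion.

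Psat1 (ENSMUSG00000024640, chr19:15904678-15947337, minus strand), the transaminase of the middle step, was the only one of the 37 genes to rise on FPKM as deposited. It had 249, 230 and 253 FPKM in AlCl3, against 130, 121 and 136 FPKM in control. All AlCl3 libraries were above all control libraries, with little spread in either group. The log2 fold change was 0.91 (SE 0.12, 95% interval 0.64 to 1.19, adjusted p = 0.00020), 1.89-fold in mean FPKM, and it passed under all 14 alternative settings, from 0.73 to 1.04.

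The enzymes on either side of it did not pass. Phgdh, the first and committed step, had 223, 217 and 202 FPKM in AlCl3, against 220, 229 and 245 FPKM in control (-0.11, 95% interval -0.39 to 0.17, adjusted p = 0.47). Psph, the last step, had 50.0, 52.9 and 42.5 FPKM in AlCl3, against 47.9, 40.2 and 34.1 FPKM in control (0.25, 95% interval -0.09 to 0.59, adjusted p = 0.17). Both pairs of groups overlapped. Psph passed when values were rescaled to TPM (0.38, adjusted p = 0.039) and without control 1 (0.37, adjusted p = 0.046). The Phgdh transcript has processed pseudogenes, of which Gm7901 matches it at 98.7% identity and held reads equal to 26.7% of those of Phgdh in AlCl3 and 26.8% in control. In Psph, 255 bases match Cct6a without a mismatch. Cct6a had 32819 reads in AlCl3 and 8691 in control, beside 10082 reads of Psph in AlCl3 and 8955 in control. The levels of Phgdh and Psph carry that uncertainty, which for Psph is uneven between the groups.

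Asns encodes asparagine synthetase, the reporter most used for ATF4 under amino acid shortage. It had 181, 173 and 192 FPKM in AlCl3, against 232, 206 and 228 FPKM in control. The groups did not overlap, with AlCl3 lower, but the fold of -0.28 (SE 0.13, 95% interval -0.57 to 0.00) did not pass, with adjusted p = 0.077. Over the alternative settings its adjusted p ranged from 0.0026, with the trend in GC and length removed, to 0.34. Shmt2 and Mthfd2, which pass on the one-carbon unit, had intervals close around no change, with Shmt2 at 171 ± 15.1 FPKM in AlCl3 and 175 ± 13.8 FPKM in control (-0.03, 95% interval -0.33 to 0.26) and Mthfd2 at 82.1 ± 2.08 FPKM in AlCl3 and 83.4 ± 7.30 FPKM in control (-0.02, 95% interval -0.29 to 0.25). Aldh1l2, a mitochondrial enzyme that releases the unit as carbon dioxide and yields NADPH, had 20.5, 19.5 and 24.1 FPKM in AlCl3, against 31.6, 34.7 and 35.8 FPKM in control. The groups did not overlap and it fell by 0.65 on the log2 scale (SE 0.12, adjusted p = 0.0013). It overlaps D10Wsu102e by 1056 bases, and that gene had 6155 reads in AlCl3 and 1349 in control, beside 7797 reads of Aldh1l2 in AlCl3 and 13013 in control.

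Of the 4 genes of proline, alanine and cysteine metabolism measured, 3 fell and 1 did not pass, with a median log2 fold change of -1.48 and a summed level of 140 ± 3.05 FPKM in AlCl3 and 343 ± 12.7 FPKM in control. Proline is made from glutamate by the synthase that Aldh18a1 encodes and then by the reductase that Pycr1 encodes. Pycr1 (ENSMUSG00000025140, chr11:120635712-120643769, minus strand) had 6.87, 6.23 and 6.59 FPKM in AlCl3, against 40.2, 42.4 and 41.1 FPKM in control. Both groups were narrow and far apart, and Pycr1 fell by 2.48 on the log2 scale (SE 0.10), with the smallest adjusted p of the 37 genes, 1.4e-06. Aldh18a1 had 54.1, 61.7 and 58.6 FPKM in AlCl3, against 134, 156 and 160 FPKM in control. It fell by 1.35 on the log2 scale (SE 0.13, adjusted p = 2.2e-05) with no overlap, less than Pycr1 did, so that the ratio of Pycr1 to Aldh18a1 was 0.113 ± 0.0130 in AlCl3 and 0.276 ± 0.0215 in control.

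Gpt2, the mitochondrial alanine transaminase, had 23.0, 24.4 and 25.3 FPKM in AlCl3, against 71.4, 76.1 and 80.1 FPKM in control. The groups did not overlap, and Gpt2 fell by 1.61 on the log2 scale (SE 0.11, adjusted p = 5.4e-06). Cth, which releases cysteine from cystathionine, had 55.7, 50.4 and 46.2 FPKM in AlCl3, against 109, 68.1 and 48.6 FPKM in control. Control 3 lay among the AlCl3 libraries and control 1 far above them, and the fold of -0.49 (SE 0.25, 95% interval -1.05 to 0.08) did not pass, with adjusted p = 0.12. Without control 3 it was -0.76 (adjusted p = 0.0086). Without control 1, the library far above the others, it was only -0.18, the smallest fall of Cth over the alternative settings. Over those settings its adjusted p ranged from 0.0086 to 0.37.

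Of the 9 amino acid transporters 5 fell and 4 did not pass, with a median log2 fold change of -0.70, or -0.32 with the trend in GC and length removed. Their summed level was 383 ± 12.5 FPKM in AlCl3 and 683 ± 73.9 FPKM in control. Slc7a5 (LAT1) exchanges large neutral amino acids such as leucine, and it works only when bound to the heavy chain 4F2hc, which Slc3a2 encodes. Slc7a5 (ENSMUSG00000040010, chr8:121881150-121907694, minus strand) had 98.8, 108 and 101 FPKM in AlCl3, against 195, 235 and 242 FPKM in control. Slc3a2 (ENSMUSG00000010095, chr19:8706882-8723369, minus strand) had 104, 127 and 107 FPKM in AlCl3, against 207, 237 and 267 FPKM in control. Neither gene's groups overlapped, and the partners fell by nearly the same amount, with log2 fold changes of -1.11 for Slc7a5 (SE 0.13, adjusted p = 9.5e-05) and -1.07 for Slc3a2 (SE 0.15, adjusted p = 0.00022). Slc7a11 (xCT), the cystine exchanger that uses the same heavy chain, had 6.78, 4.37 and 7.07 FPKM in AlCl3, against 5.85, 6.29 and 7.32 FPKM in control. Its groups overlapped, and the fold of -0.10 (95% interval -0.49 to 0.29) did not pass, with adjusted p = 0.63. A stretch of 373 bases in its longest transcript resembles tubulin genes, of which Tuba1b had 24785 reads in AlCl3 and 8801 in control, so reads may have been shared.

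Slc1a4 and Slc1a5 encode the sodium-coupled carriers ASCT1 and ASCT2 for alanine, serine, cysteine and glutamine. Slc1a4 had 16.8, 20.3 and 19.2 FPKM in AlCl3, against 43.1, 49.9 and 53.3 FPKM in control, and fell by 1.33 on the log2 scale (SE 0.13, adjusted p = 2.7e-05). Slc1a5 had 34.6 ± 2.05 FPKM in AlCl3 and 60.3 ± 2.67 FPKM in control, with a log2 fold change of -0.78 (SE 0.11, adjusted p = 0.00025) and of -0.43 with the trend in GC and length removed. Slc6a9, the glycine carrier GlyT1, had 7.08 ± 0.466 FPKM in AlCl3 and 12.2 ± 0.936 FPKM in control, with a log2 fold change of -0.70 (SE 0.11, adjusted p = 0.00060) and of -0.32 with that trend removed. In all of these the AlCl3 libraries lay below the control libraries without overlap. The span of Slc6a9 overlaps B4galt2, which had 2547 reads in AlCl3 and 5058 in control, beside 1759 reads of Slc6a9 in AlCl3 and 3184 in control.

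The carriers of cationic amino acids and the glutamine carrier SNAT2 did not pass. Slc7a1 (CAT1) had 20.7, 20.1 and 21.9 FPKM in AlCl3, against 23.0, 27.5 and 27.3 FPKM in control. The groups did not overlap, and the fold of -0.29 (95% interval -0.56 to -0.03) missed the threshold narrowly, with adjusted p = 0.053, or 0.013 without control 1. Slc7a3 (CAT3) had 10.8 ± 0.937 FPKM in AlCl3 and 10.1 ± 1.78 FPKM in control (0.10, 95% interval -0.22 to 0.42, adjusted p = 0.56). Slc38a2 (SNAT2), itself induced when amino acids run short, had 70.7, 57.3 and 81.5 FPKM in AlCl3, against 47.2, 62.3 and 65.2 FPKM in control. Its groups overlapped and the fold was 0.26 (95% interval -0.13 to 0.64, adjusted p = 0.22).

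Because the genes of the program fell by such different amounts, their ratios were compared within each library, which removes any scaling of the library. There were 14 ratios, of pairs chosen after their values had been seen. In 13 of them the groups did not overlap, each with the smallest exact two-sided permutation p of 0.1, or 0.11 adjusted over the 14. Relative to Atf4, Chac1 stood at 0.110 ± 0.0121 in AlCl3 and 0.685 ± 0.0677 in control, Trib3 at 0.213 ± 0.0335 in AlCl3 and 0.905 ± 0.0508 in control, and Ddit3 at 0.0523 ± 0.00359 in AlCl3 and 0.155 ± 0.0168 in control. Asns went the other way, at 0.545 ± 0.0458 of Atf4 in AlCl3 and 0.423 ± 0.0135 in control. Psat1 stood at 1.14 ± 0.0948 of Phgdh in AlCl3 and 0.559 ± 0.0302 in control, so that on FPKM as deposited Psat1 exceeded Phgdh in AlCl3 and lay below it in control. Which gene is higher in AlCl3 depends on how reads were split between Phgdh and its pseudogenes, which was not tested. Gm7901 held reads equal to 26.7% of those of Phgdh in AlCl3 and 26.8% in control, and Gm9347 8.24% and 8.40%. The ratio of Pycr1 to Psat1 was 0.0269 in AlCl3 and 0.321 in control, 11.9-fold lower in AlCl3. The exception was Slc7a5 over Slc3a2, at 0.950, 0.851 and 0.948 in AlCl3, against 0.939, 0.992 and 0.904 in control. These overlapped (exact permutation p = 0.7).

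**Figure D3:**
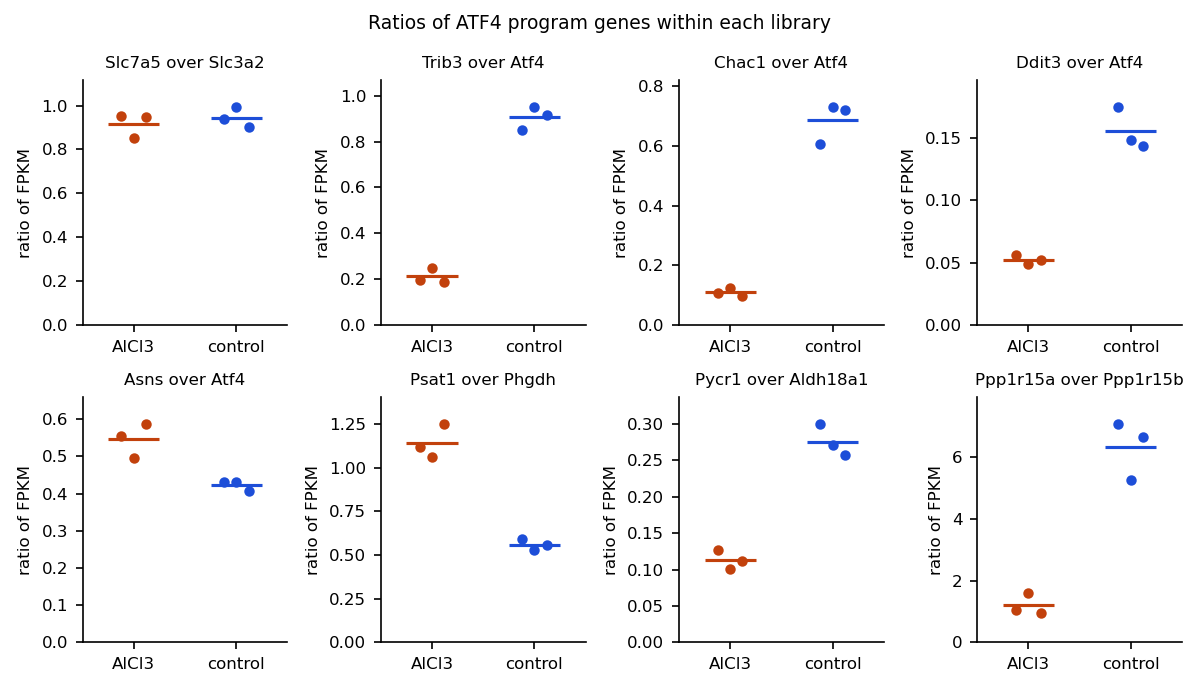
Ratio of the FPKM of pairs of genes within each library, with a point for each of the 3 AlCl3 libraries at left and the 3 control libraries at right and a line at each group's mean. Trib3, Chac1 and Ddit3 stand lower against Atf4 in AlCl3, Asns against Atf4 and Psat1 against Phgdh stand higher, and the transporter partners Slc7a5 and Slc3a2 keep a ratio near 1 in both groups.

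In the lists that follow, counts stand against a background of 31.2% of all genes tested that rose and 30.2% that fell, and no list was tested as a whole. The machinery upstream of ATF4 was read from a list of 24 genes for eIF2, its kinases, its exchange factor eIF2B, phosphatase catalytic subunits and reinitiation factors. Of 23 tested, 12 rose and 4 fell, with a median log2 fold change of 0.51, and 2 fell without control 2 or without AlCl3 1. The kinases and their substrate gene Eif2s1 were named by class after their values had been seen. Eif2ak4 (GCN2), which senses uncharged tRNA, had 3.20 ± 0.368 FPKM in AlCl3 and 7.36 ± 1.50 FPKM in control and fell by 0.98 on the log2 scale (adjusted p = 0.00046), with folds of -1.16 to -0.58 over the alternative settings. Eif2ak3 (PERK), the kinase of the endoplasmic reticulum, had 2.64 ± 0.235 FPKM in AlCl3 and 3.87 ± 0.737 FPKM in control (-0.41, adjusted p = 0.032), a call that ended in TPM (-0.37, adjusted p = 0.17), with no filter on low values (adjusted p = 0.084), without control 2 (-0.32, adjusted p = 0.13), without control 3 (adjusted p = 0.087), without AlCl3 1 (adjusted p = 0.094) and without AlCl3 2 (adjusted p = 0.066). Eif2ak2 (PKR), which binds double-stranded RNA, had 26.8 ± 6.06 FPKM in AlCl3 and 12.8 ± 2.11 FPKM in control and rose by 1.00 (adjusted p = 0.0012). Eif2ak1 (HRI), the kinase of heme deficiency and mitochondrial stress, had 5.78 ± 0.233 FPKM in AlCl3 and 3.77 ± 0.0335 FPKM in control and rose by 0.51 (adjusted p = 0.0028), with folds of 0.30 to 0.68 over the alternatives. Eif2s1, which encodes the subunit that these kinases phosphorylate, had 53.3 ± 3.91 FPKM in AlCl3 and 15.7 ± 3.74 FPKM in control and rose by 1.72 (adjusted p = 2.3e-05). The eIF2B subunits Eif2b1 (1.43), Eif2b3 (1.36, and 0.85 to 1.62 over the alternatives) and Eif2b5 (1.12) and the reinitiation factor Denr (1.49) also rose. Eif2s2, with 84.2 ± 4.08 FPKM in AlCl3 and 66.4 ± 19.2 FPKM in control, did not pass (0.37, adjusted p = 0.11), but did without control 1 (0.59, adjusted p = 0.0027). These are mRNA levels, and phosphorylation of eIF2 was not measured.

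Of 16 other ATF, CREB and C/EBP family genes tested, 10 fell and 1 rose, with a median log2 fold change of -0.45, and 6 fell when control 2 was left out. The count that rose was 1 to 3 over the alternative settings. Jdp2, a repressor that pairs with ATF factors, had 19.7 ± 0.101 FPKM in AlCl3 and 76.6 ± 6.70 FPKM in control and fell by 1.91 (adjusted p = 3.2e-06). Creb3l1 (-1.10, and -1.25 to -0.58 over the alternatives), Batf3 (-1.09, and -1.39 to -0.50), Creb3l2 (-1.06) and Nfil3 (-1.04) fell as well. In a list of 12 other genes reported as ATF4 targets, 11 were tested, of which 6 fell and 1 rose, with a median of -0.36. Herpud1, which helps degrade misfolded proteins of the endoplasmic reticulum, had 52.9 ± 7.78 FPKM in AlCl3 and 142 ± 11.3 FPKM in control (-1.41, adjusted p = 3.1e-05). Eif4ebp1, which encodes the translation repressor 4E-BP1, had 202 ± 67.0 FPKM in AlCl3 and 368 ± 34.6 FPKM in control (-0.90, adjusted p = 0.0054). Fam129a was the 1 that rose, with 12.4 ± 1.69 FPKM in AlCl3 and 6.92 ± 0.801 FPKM in control (0.75, adjusted p = 0.0011).

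Among other amino acid enzymes, rises were more numerous. In the list of 20 further serine, glycine, one-carbon and methionine enzymes, 16 were tested, of which 10 rose and 3 fell, with a median log2 fold change of 0.68. Tyms, which makes thymidylate, had 31.6 ± 1.57 FPKM in AlCl3 and 5.65 ± 1.74 FPKM in control (2.33, adjusted p = 8.0e-06). Mthfd1l, which makes formate in the mitochondrion, had 36.8 ± 3.18 FPKM in AlCl3 and 10.2 ± 1.13 FPKM in control (1.76, adjusted p = 6.1e-06). The cytosolic enzymes Shmt1, with 26.3 ± 1.55 FPKM in AlCl3 and 7.84 ± 0.218 FPKM in control (1.62), and Mthfd1, with 27.0 ± 1.76 FPKM in AlCl3 and 8.58 ± 0.129 FPKM in control (1.54), rose likewise, as did Gcsh of the glycine cleavage system (1.59). The mitochondrial enzymes Shmt2 and Mthfd2, given above, did not pass on FPKM as deposited. Shmt2 rose with the trend in GC and length removed (0.37, adjusted p = 0.0054).

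Of 15 further enzymes of proline, glutamate, aspartate and branched-chain amino acids tested, 5 rose and 5 fell, with a median of -0.16, or 0.25 with the trend in GC and length removed, where 8 rose and 5 fell. Oat, which links ornithine with the intermediate of proline synthesis, had 91.1 ± 5.17 FPKM in AlCl3 and 38.8 ± 1.28 FPKM in control (1.21, adjusted p = 2.1e-05). Pycrl, which encodes a cytosolic reductase of proline synthesis, had 133 ± 16.9 FPKM in AlCl3 and 164 ± 8.26 FPKM in control and did not pass (-0.30, adjusted p = 0.083). On the per-length scale Pycrl was far above Pycr1 in both groups. Got1, the cytosolic aspartate transaminase, had 57.5 ± 2.95 FPKM in AlCl3 and a mean of 152 FPKM in control (-1.39, SE 0.11, adjusted p = 1.1e-05), while Bcat1 (1.24) and Ass1 (1.06) rose.

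Of 10 further amino acid transporters tested, 3 rose and 4 fell. The falls include Slc7a7, which reached the mean of 1 FPKM through the control libraries only, with 0.550 ± 0.148 FPKM in AlCl3 and 1.96 ± 0.0555 FPKM in control. Slc38a7, a lysosomal glutamine carrier, fell by 1.35 (adjusted p = 3.2e-05), and Slc38a1, a glutamine carrier of the plasma membrane, rose by 0.66 (adjusted p = 0.0031). Of the 12 aminoacyl-tRNA synthetases, which charge tRNA and are reported as ATF4 targets, 4 rose and 2 fell, with a median of 0.05. Tars had 113 ± 9.67 FPKM in AlCl3 and 58.4 ± 7.53 FPKM in control (0.94, adjusted p = 2.8e-04), and Yars had 26.4 ± 1.08 FPKM in AlCl3 and 43.6 ± 1.62 FPKM in control (-0.70, adjusted p = 3.7e-04). The count of synthetases that rose was 2 without control 2 and 1 without AlCl3 1 or without AlCl3 3. With the trend in GC and length removed 3 rose and 4 fell, and in TPM 5 rose and 1 fell. The folds of Wars (0.36) and Gars (0.35) were small.

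The other branches of the unfolded protein response were set beside the program. Of 19 targets of IRE1 and ATF6 and chaperones of the endoplasmic reticulum, 11 fell and 2 rose, with a median log2 fold change of -0.44. The 2 that rose, named here for their direction, were Dnajc3 (0.85, adjusted p = 4.4e-04) and Pdia6 (0.42, adjusted p = 0.013). Without control 2 or without AlCl3 1, 1 rose. Hspa5, the chaperone BiP, had 334 ± 31.0 FPKM in AlCl3 and 776 ± 33.1 FPKM in control (-1.22, adjusted p = 9.8e-05), and Xbp1, the factor spliced by IRE1, had 36.7 ± 2.31 FPKM in AlCl3 and 64.9 ± 2.87 FPKM in control (-0.81, adjusted p = 2.2e-04). Of 22 genes of amino acid sensing to mTORC1 tested, 7 fell (31.8%) and 2 rose (9.09%), with a median of -0.02, so that the share that fell was near that of all genes. With the trend in GC and length removed 7 fell and 6 rose. Without AlCl3 1 or without AlCl3 3, 4 fell and 1 rose, and 3 fell on values rescaled to TPM. Without control 1 or without control 2, 1 rose. Among the named genes Castor2 and the arginine sensor Castor1 fell most. Castor2 had 1.66 ± 0.275 FPKM in AlCl3 and 9.92 ± 1.78 FPKM in control (-2.03, adjusted p = 7.9e-06, -2.50 to -1.16 over the alternative settings). Castor1 had 2.80 ± 0.522 FPKM in AlCl3 and 9.61 ± 1.21 FPKM in control (-1.48, adjusted p = 3.2e-05, -1.75 to -0.90 over the alternatives). Sesn3, a relative of Sesn2, had 0.867 ± 0.0760 FPKM in AlCl3 and 2.95 ± 0.614 FPKM in control. Its fold was -1.07, or -1.64 to -0.44 over the alternatives, and it passed the filter on low values through the control libraries.

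**Figure D4:**
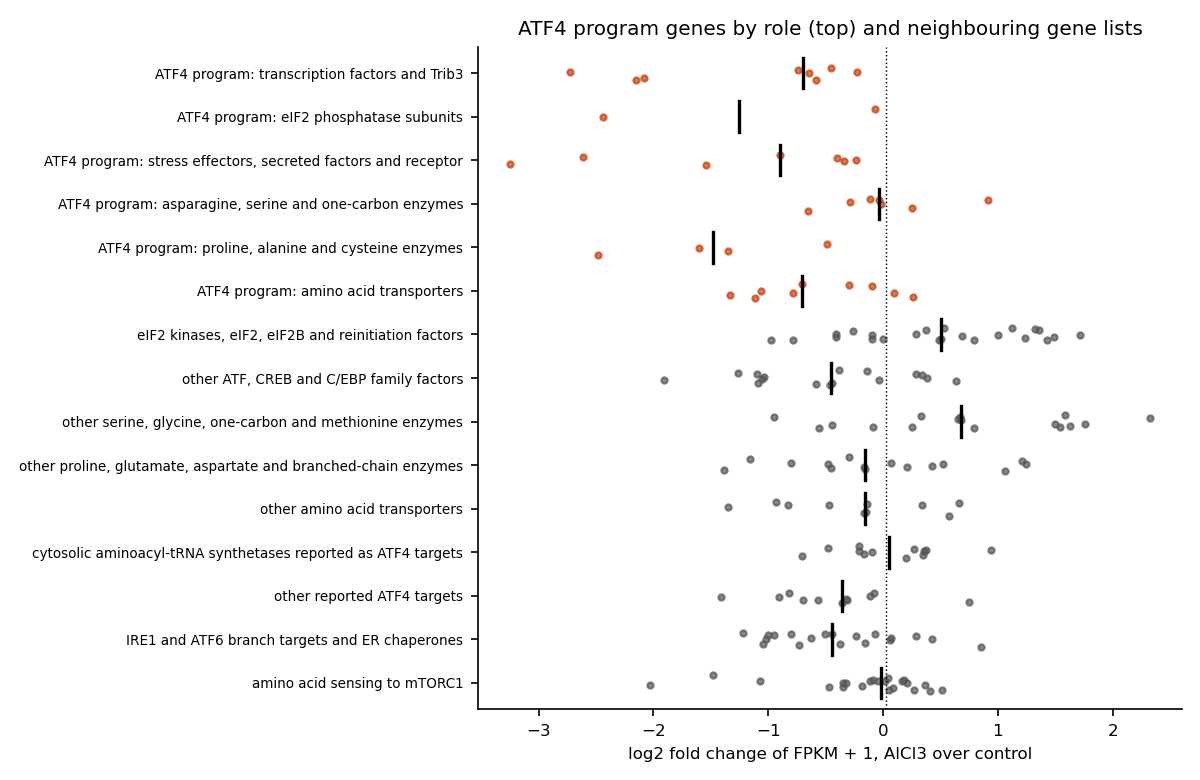
Log2 fold change, AlCl3 over control, of each tested gene in the 6 roles of the ATF4 program (top) and in 9 neighbouring lists, with a bar at the median of each row and a dotted line at the median of all genes. Proline and alanine genes and the stress effectors have the lowest medians, -1.48 and -0.90 beside -1.25 for the 2 phosphatase subunits, and the further one-carbon enzymes have the highest, 0.68.

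Some features of the libraries moved with these folds. Across all genes tested, those poorest in GC had a median log2 fold change of 0.33, and those richest, with transcripts of 57.7% to 73.7% GC, had -0.53, when the genes were cut into 10 equal groups by GC share. The GC share was 58.2% in Trib3 and 57.4% in Chac1, 61.3% in Gdf15 and 58.7% in Sesn2. With the trend in GC and length removed, 3685 of all 11202 genes tested fell and 3755 rose, beside 3379 and 3490 on FPKM as deposited. Of the 37 genes, 26 then fell and 3 rose. Beside Psat1, these 3 were Shmt2 (0.37, adjusted p = 0.0054) and Phgdh (0.29, adjusted p = 0.032). Genes that did not pass on FPKM as deposited and passed on the lower side after the removal were Cebpg (-0.54, adjusted p = 3.3e-04), Asns (-0.48), Cth (-0.79, adjusted p = 0.016), Slc7a11 (-0.31), Stc2 (-0.29), Ppp1r15b (-0.22) and Slc7a1 (-0.21), while Atf5 and Cebpb no longer passed. The part of GC content in the deposited values was not tested.

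**Figure D5:**
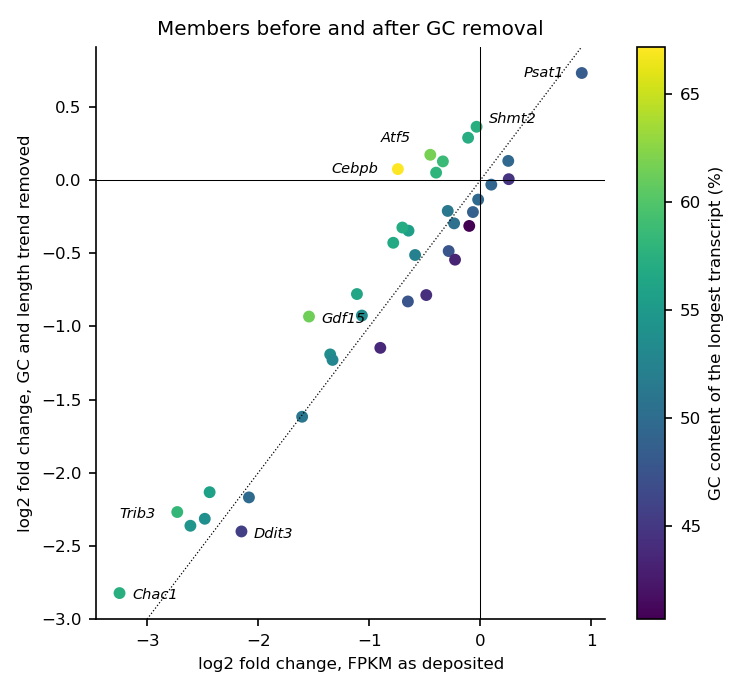
Log2 fold change, AlCl3 over control, of each of the 37 genes from FPKM as deposited (horizontal) and after removal of a smooth trend in GC content and length (vertical), coloured by the GC content of the longest transcript in percent, with the line of equality dotted. Chac1, Trib3 and Ddit3 remain below -2, Psat1 remains above 0, and Cebpb and Atf5 cross 0.

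The identity of the cells was checked against marker genes. Of 22 Sertoli markers 19 were in the table and 10 were tested, of which 4 rose and 4 fell. Their level was mostly that of Vim, with a summed level of 391 to 434 FPKM in AlCl3 and 281 to 403 FPKM in control. Sox9 was low, at 1.51 to 1.71 FPKM in AlCl3 and 0.903 to 1.06 FPKM in control. The defining Sertoli markers Wt1 and Amh lay at or below 0.201 and 0.204 FPKM in every library. Other Sertoli markers were expressed. Inhbb had 46.0 ± 2.58 FPKM in AlCl3 and 72.1 ± 13.1 FPKM in control and fell. Gata4 fell too, from 11.6 ± 2.03 FPKM in control to 6.33 ± 0.435 FPKM in AlCl3. Inha had 1.56 ± 0.0756 FPKM in AlCl3 and 4.54 ± 1.10 FPKM in control (-1.09). The remaining fall was that of Dhh (-1.32), with 0.160 FPKM in AlCl3 and 1.90 ± 0.208 FPKM in control. Dhh passed the filter on low values through the control libraries only. Abcb1b rose, with 7.51 ± 1.59 FPKM in AlCl3 and 3.45 ± 0.354 FPKM in control. Kitl, at 4.96 ± 1.63 FPKM in AlCl3 and 6.36 ± 1.18 FPKM in control, did not pass. Markers of peritubular myoid and smooth muscle cells, of which 3 of 4 tested fell, summed to 290 to 329 FPKM in AlCl3 and 693 to 721 FPKM in control, mostly from Acta2, with 183 ± 14.9 FPKM in AlCl3 and 454 ± 14.0 FPKM in control. Macrophage and leukocyte markers, of which 1 of 2 tested rose, summed to 31.0 to 33.4 FPKM in AlCl3 and 8.18 to 10.1 FPKM in control, nearly all from Cd14, while Csf1r, Aif1 and Fcgr1 were at or below 0.101 FPKM. Germ cell markers summed to at most 0.296 FPKM and none was tested. Of the retina markers, Nrl and Pde6b were at or below 0.024 FPKM, and the sum of 14.6 to 15.9 FPKM in AlCl3 and 19.6 to 24.9 FPKM in control was mostly Rbpms. The single Leydig marker tested and the single retina marker tested both fell. Leydig markers summed to 7.77 to 10.4 FPKM in AlCl3 and 10.8 to 13.6 FPKM in control, mostly Nr2f2. The part of the change in these markers in the folds of the ATF4 program was not tested.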

How the data were processed

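RNA-seq of TM4 cells gave 3 AlCl3 and 3 control libraries, grouped by their titles. The authors deposited FPKM per gene, a unit known from the name and values of their table. Per the submitters' processing notes, HISAT2 2.1.0 and GRCm38 were used. How reads were counted, on which annotation and whether by strand is not given in the sources used here. Identifiers were matched to GENCODE M21, which held 24300 of 24354. With GENCODE exon lengths, FPKM steps gave whole reads within 0.01 reads in all 6 libraries for 98.6% of genes, and no pair of libraries was identical.

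The test was limma 3.58.1 (R 4.3.3), fitted to log2(FPKM + 1) of the 11202 genes whose mean FPKM reached 1, with trend, without covariates, and with two-sided Benjamini-Hochberg adjusted p over all genes tested, threshold 0.05. The pseudocount understates folds of low genes. Levels are mean ± SD (n = 3 per group), and intervals are 95% intervals. The fit was also run on simulated counts in which few genes changed, unlike these data, and no conclusion is drawn from that run here. Matching transcripts (at least 95% identity over 200 bases) were found with blastn 2.17.0, and single values were compared by exact permutation in scipy 1.17.1 under Python 3.11.15.

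The genes and lists were chosen with earlier results of these data known. All genes of the program are named, and of each other list up to 4 genes with the smallest p and up to 2 with the highest mean FPKM; not every gene so chosen is described, and others are marked. Lists have no test of their own. Alternatives were other pseudocounts and filters, TPM, median-ratio scaling, removal of a trend with GC content and length, a replicate block, and leaving out each library.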

Additional observations from a re-analysis of the deposited data

How the results depend on the processing

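Of the 22 genes called, 19 that fell and Psat1 kept direction and call under every alternative that gave a value; Atf5 and Cebpb did not. Of the 15 that did not pass, Slc38a2, Mthfd2 and Slc7a3 passed under no alternative, and the sign of Mthfd2 and Slc7a3 turned. The program's count of falls was 20 to 26 (main 21). Its count of rises, main 1, was 2 rescaled to TPM, 3 with the GC and length trend removed, and 1 to 2 leaving out 1 library. Directions turned, with the cause not tested, as follows. With the GC and length trend removed, the folds were 0.17 for Atf5, 0.0768 for Cebpb, 0.13 for Sesn2, 0.0525 for Ddit4, 0.29 for Phgdh, 0.37 for Shmt2 and -0.0296 for Slc7a3. In TPM, which moved the median of all genes to 0.13, they were 0.0523 for Ppp1r15b, 0.0124 for Phgdh, 0.0885 for Shmt2, 0.10 for Mthfd2 and 0.0049 for Slc7a11. Leaving out 1 library, folds ranged for Ppp1r15b from -0.16 to 0.0077, for Shmt2 from -0.10 to 0.0296, for Mthfd2 from -0.0816 to 0.0433, for Slc7a11 from -0.21 to 0.0874 and for Slc7a3 from -0.0214 to 0.21. Gdf15 and Fgf21 gave no value at a mean of at least 5 FPKM.

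Over all genes, 3490 rose and 3379 fell, 3600 and 3865 without a filter, and 2416 and 2260 at a mean of at least 5 FPKM. In TPM 3997 rose and 2974 fell, and with the GC and length trend removed 3755 rose and 3685 fell. With the replicate number as a block, 3778 rose and 3597 fell, and 23 of the 37 genes fell, Cth (adjusted p = 0.033) and Slc7a1 (adjusted p = 0.048) added. The numbers do not establish a pairing: deviations of same-numbered libraries correlated at 0.20, 0.10 and 0.39, and AlCl3 2 matched control 1 best, at 0.17. Depth limits Fgf21 in AlCl3, with 1 to 3 reads per library.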
